A study of Mus musculus with 36 samples.

Results

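The transcripts described here encode subunits of voltage-gated sodium channels, the proteins that carry the rising phase of the action potential in neurons. The members were chosen by name: 7 genes, the α subunits Scn1a, Scn2a, Scn3a and Scn8a and the β subunits Scn2b, Scn3b and Scn4b, of 18194 genes with a probe set of their own on the array. They were read by 20 probe sets of 45101: 3 for Scn1a, 4 for Scn2a, 2 for Scn3a, 5 for Scn8a, 3 for Scn2b, 2 for Scn3b and 1 for Scn4b. The rule for a probe set to belong uses its symbol alone and no measured value. The genes themselves were chosen with earlier results of these data known, so their counts beside the share of all probe sets are descriptions. For each gene the probe set with the highest mean over all arrays is called its main probe set.

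An α subunit is a single large protein that forms the pore and senses the membrane voltage, and the brain uses several such genes with overlapping but different sites of expression. β subunits are small membrane proteins with an immunoglobulin-like outer domain that tune channel gating and surface delivery and also act in cell adhesion. In the cerebellum, Purkinje cells fire at high rates by themselves with the help of the α subunit of Scn8a and the β subunit of Scn4b, while Scn2a is a main α subunit of the thin granule cell axons.

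RNA from the forebrain and from the cerebellum of mice was hybridised to 36 Affymetrix arrays, in 12 groups of 3. Each of 3 lines, named stg, tg and lh in the labels, gave a -/- and a +/+ group in both tissues, and each -/- group is set against the +/+ group of its own line. The symbols are read as stargazer, tottering and lethargic, spontaneous mutants of the calcium channel genes Cacng2, Cacna1a and Cacnb4, although the labels give the symbols alone. These mutations are inherited and present in every cell throughout life, so when a difference arose cannot be told. The labels call the +/+ animals mutant mice too and give no age, strain or treatment beyond sacrifice. They speak of 1 mouse for each RNA, but not of whether forebrain and cerebellum came from the same animals, and the p-values below measure the spread between these samples.

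The arrays had been scaled to a common level, with a mean of 150 on every array after 2% of the probe sets were trimmed at each end. Array medians of the log2 signal lay between 6.96 and 7.08. All 10 cerebellum markers, among them Pcp2, Gabra6 and En2, and 5 of 7 forebrain markers separated the 18 arrays of one tissue from the 18 of the other without overlap. The exceptions were Ppp1r1b and Emx1. Cacng2 signal fell by 4.53 (log2) in stg-/- cerebellum, and its change in stg-/- forebrain was -3.61. Cacnb4 fell by 1.08 in lh-/- forebrain (adjusted p = 0.0285), and its change in lh-/- cerebellum was -0.61 (adjusted p = 0.0814). The main Cacna1a probe set did not pass in tg, at 0.13 in cerebellum and 0.18 in forebrain, and a missense change need not alter the amount of a transcript, so it checks nothing there. The forebrain arrays of stg+/+ replicates 1 and 2 carried high signals of the pituitary hormone genes Gh (2603 and 2102) and Prl (2546 and 2086), as did that of lh+/+ replicate 3. In cerebellum the arrays with these numbers read highest for Prl, at 108 and 247 in stg+/+ and 297 in lh+/+. No other cerebellum array exceeded 56.8. Their Gh was 74.4, 230 and 90.1, and stg-/- cerebellum replicate 3 read 126. The part of pituitary RNA in the cerebellum results was not tested. One alternative leaves out the 6 arrays with these 3 replicate numbers in both tissues. Forebrain numbers, apart from 1 in a title, were given in the order of the records and need not name the same animals as in cerebellum.

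Of the 20 probe sets, 16 lay above the limit on dim signals in cerebellum and 18 in forebrain and in the fit of both tissues. Below it in cerebellum were both Scn3a probe sets, the second Scn3b probe set (1426328_a_at) and the Scn8a probe set 1442208_at. In forebrain 2 fell below it, the Scn3a probe set 1421705_at and again 1442208_at. A probe set is said to have risen or fallen only at an adjusted p under 0.05 over the 27022 probe sets of a fit.

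Scn2a was the α subunit that fell in a mutant, so the sequences around its annotated starts are shown first, as RefSeq gives them on the plus strand of GRCm38.p6. Each window runs from 250 bases before a start to 50 bases after it. The first is chr2:65620519-65620818, with 33% G or C, and the second chr2:65668436-65668735, with 47.7%, beside a median of 52.7% over 32851 mouse windows. Capitals mark the letters TATAAA.
Scn2a window 1: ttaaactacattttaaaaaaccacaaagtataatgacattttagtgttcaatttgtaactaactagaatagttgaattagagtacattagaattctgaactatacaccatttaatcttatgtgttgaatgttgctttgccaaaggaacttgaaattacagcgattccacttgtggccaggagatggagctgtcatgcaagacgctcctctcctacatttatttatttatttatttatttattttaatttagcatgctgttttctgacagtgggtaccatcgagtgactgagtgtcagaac
Scn2a window 2: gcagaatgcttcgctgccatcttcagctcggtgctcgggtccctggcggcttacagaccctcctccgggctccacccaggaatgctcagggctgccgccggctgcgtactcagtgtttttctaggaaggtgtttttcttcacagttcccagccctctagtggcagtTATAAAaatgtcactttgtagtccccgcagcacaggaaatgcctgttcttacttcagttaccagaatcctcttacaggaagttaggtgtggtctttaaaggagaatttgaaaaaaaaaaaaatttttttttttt
Windows were found for 5 of the 7 genes, 7 windows in all. Letters TATAAA, searched on both strands, were in 1 of the 7, the second Scn2a window, and in 13.6% of all windows. The first Scn2a window holds no such match but an uninterrupted run of 24 bases of repeated TTTA. The other motifs searched on both strands, GGGCGG (in 35.7% of all windows), TGACGTCA (1.79%), GGACAGC (6.56%) and CAGCTG (16.3%), were in 0 of the 7. These are descriptions of the letters in the windows. The Scn2b and Scn4b windows lie near each other, at chr9:45117626-45117925 and chr9:45138374-45138673. The Scn1a window lies on chromosome 2 like those of Scn2a, and the 2 Scn8a windows lie on chromosome 15.

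In the cerebellum of stg-/- mice, the signal of Scn3b rose and that of Scn2a fell. Scn3b encodes a β subunit that binds the channel without a covalent link, and Scn2a an α subunit found along axons and initial segments. Of the 16 sodium channel probe sets tested, 4 passed, 1 higher (Scn3b) and 3 lower (all Scn2a). Over all probe sets 1.3% passed in this comparison, 0.525% higher and 0.777% lower. No probe set of the other genes passed.

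The main Scn3b probe set (1435767_at) read 204, 164 and 179 in stg-/- cerebellum and 64.7, 52.9 and 35.1 in stg+/+ cerebellum. Every mutant array stood above every control array. The means were 182 ± 20.1 and 50.9 ± 14.9 (SD, n = 3 each), a ratio of 3.58. The log2 change was 1.81 ± 0.23 (SE; 95% interval 1.33 to 2.30, adjusted p = 0.000216), the 7th largest of the 142 rises in this comparison. Pairs of arrays with the same number in their titles differed by 1.61, 1.58 and 2.26. Within the first run of consecutive records, which held 4 of the 6 arrays, the change was 1.59, and within the second 2.26.

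This rise still left Scn3b far under its forebrain level. The stg-/- cerebellum mean was 23.9% of that of stg+/+ forebrain, against 6.67% for stg+/+ cerebellum. The log2 difference of cerebellum from forebrain was -2.07 in stg-/- mice and -3.87 in stg+/+ mice. The second Scn3b probe set was too dim to be tested in cerebellum. It read 39.9, 18.6 and 21.9 in stg-/- mice against 4.75, 17.3 and 2.03 in stg+/+ mice, so all mutant arrays were again above all control arrays.

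The 7 measured forebrain markers were unlike each other in the same arrays. Bcl11b, Drd1, Tbr1 and Lhx2 reached from 1.49% (Lhx2) to 3.83% (Drd1) of their stg+/+ forebrain level in stg-/- cerebellum. All 4 stood lower in stg+/+ cerebellum. The stg-/- and stg+/+ values were 2.53% and 1.38% for Bcl11b, 3.83% and 3.45% for Drd1, 2.80% and 1.28% for Tbr1, and 1.49% and 0.385% for Lhx2. Neurod6 stood at 8.40% in stg-/- and 11.0% in stg+/+ cerebellum, and Emx1 at 23.1% and 23.6%. The summed signal of the 7 was higher in stg-/- cerebellum without overlap, at 567 to 747 against 456 to 541. Most of that sum was Ppp1r1b, at 68.8% of its forebrain level in stg-/- and 48.6% in stg+/+ cerebellum. Of the 7 markers 2, Ppp1r1b and Neurod6, were bright enough to be tested, and neither passed. The part of forebrain RNA in the Scn3b result was not tested.

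Scn2a was lower on 3 of its 4 probe sets. The main one (1435933_at) read 1299.7, 1525 and 1574 in stg-/- cerebellum and 2409, 2443 and 2267 in stg+/+ cerebellum. The groups did not overlap, and the mutant mean was 61.8% of the control mean. The log2 change was -0.70 ± 0.10 (SE, adjusted p = 0.000972), with -0.89, -0.68 and -0.53 in the numbered pairs and -0.78 and -0.53 within the runs of records. Without the 6 arrays numbered like those with high Gh and Prl, which leaves 1 stg+/+ cerebellum array whose spread is assumed to be like that of the other groups, the change was -0.63 and did not pass (adjusted p = 0.0802).

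Probe set 1427280_at read 518, 615 and 587 in stg-/- and 1158, 823 and 1379 in stg+/+ cerebellum. Here the groups did not overlap either, although the 3 controls were spread widely. The change was -0.93 ± 0.15 (SE, adjusted p = 0.00169). Probe set 1427281_at read 497, 453 and 491 against 707, 732 and 898, again without overlap, with a change of -0.69 ± 0.12 (SE, adjusted p = 0.00489). The fourth, 1445259_at, is dim (68.0 to 89.5 in the controls), and its change of -0.13 did not pass (adjusted p = 0.892). The sources used here do not say which Scn2a transcripts each probe set detects.

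**Figure D1:**
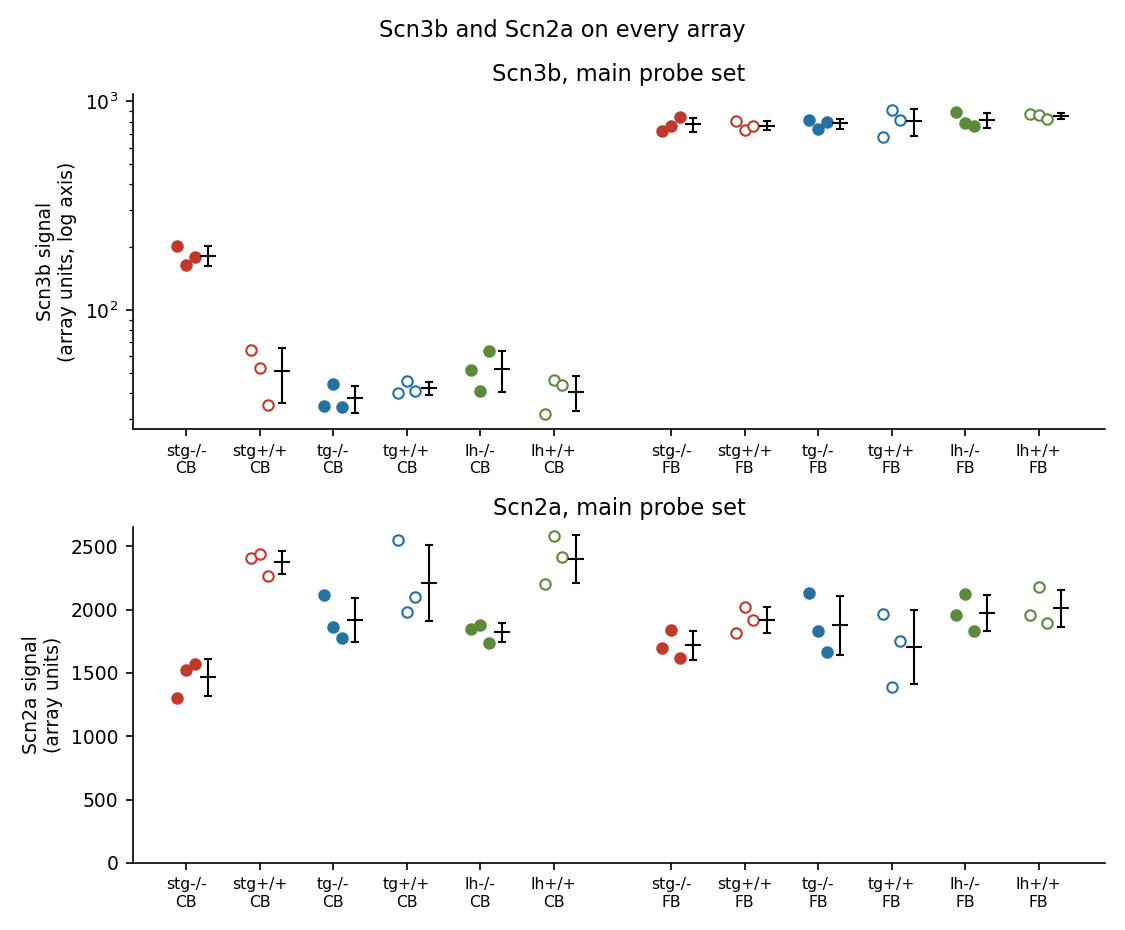
Signal of the main Scn3b probe set (upper panel, log axis) and of the main Scn2a probe set (lower panel, linear axis from 0) on all 36 arrays, in cerebellum (CB) and forebrain (FB). Filled circles are -/- arrays and open circles +/+ arrays, and bars give the mean ± SD of 3 arrays. The stg-/- cerebellum arrays of Scn3b (164 to 204) stand between the other cerebellum arrays and the forebrain arrays, and those of Scn2a (1299.7 to 1574) below every stg+/+ cerebellum array.

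The other members did not pass in stg-/- cerebellum. Scn4b, whose β subunit supports the repetitive firing of Purkinje cells, read 357, 350 and 318 in stg-/- and 274, 286 and 241 in stg+/+ cerebellum. Its groups did not overlap, and the change of 0.35 did not pass (95% interval 0.09 to 0.61, adjusted p = 0.245). Scn2b, a β subunit held to the α subunit by a disulfide bond, gave -0.22 on its main probe set (interval -0.39 to -0.04, adjusted p = 0.314). Scn1a, an α subunit of inhibitory neurons and Purkinje cells, gave -0.25 (interval -0.53 to 0.02, adjusted p = 0.502). Scn8a, the α subunit of initial segments and nodes of Ranvier, gave -0.11 (interval -0.30 to 0.08, adjusted p = 0.757), and its 4 tested probe sets ran from -0.22 to -0.01. Scn3a, an α subunit known mainly from the developing brain, read from 6.65 to 20.5 on all 6 arrays and was too dim to be tested.

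Several cell type markers moved with the same arrays. The 7 granule cell markers summed to 22408 to 24113 in stg-/- and 24659 to 29446 in stg+/+ cerebellum, without overlap, and 1 of them fell, Gabra6 (-0.41, adjusted p = 0.0129). The others did not pass and went both ways: Slc17a7 (-0.46), Neurod1 (-0.37), Cbln3 (-0.18) and Cbln1 (-0.07) were below 0, and Reln (0.07) and Fat2 (0.08) above it. The 6 Purkinje cell markers summed to 31660 to 34936 against 24496 to 30167, also without overlap and in the opposite direction. In limma 0 of the 6 passed, with 4 at an unadjusted p under 0.05. The 8 astrocyte markers summed to 20785 to 21309 against 17526 to 20297, again without overlap and higher in stg-/- mice, and Gfap rose (0.93, adjusted p = 0.0283). The largest part of the astrocyte sum was Aldoc, which overlapped at 8070 to 9208 against 6150 to 8594 (0.20). Slc1a3 (0.01), Slc1a2 (-0.04) and S100b (-0.06) hardly moved, and Aqp4, Aldh1l1 and Gdf10 gave 0.12 to 0.25. Sums of the inhibitory interneuron (13352 to 13603 against 11490 to 13335) and microglia markers (1056 to 1237 against 909 to 1040) also did not overlap, with 0 of 8 and 0 of 6 tested markers passing, while those of oligodendrocytes and choroid plexus overlapped. The largest part of the interneuron sum was Pvalb, at 6486 to 6648 against 4455 to 6092 (0.33). Gad1 (-0.02), Slc32a1 (-0.03) and Gad2 (0.01) hardly moved, Slc6a5 gave -0.35, and Kit, Sst and Grm2 gave 0.14 to 0.34. En2, a cerebellum marker, fell (-0.48, adjusted p = 0.0297). In whole tissue fewer cells of a type and less RNA per cell cannot be told apart, and the part of these markers in the Scn2a and Scn3b results was not tested. Ratios of the 3′ to the 5′ Gapdh control overlapped between both groups, at -0.38 to -0.24 and -0.43 to -0.30 (log2). Those of the actin control overlapped too, at 0.92 to 1.08 and 0.94 to 1.12.

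In tg-/- cerebellum 0 of the 16 probe sets passed in limma, where 0.574% of all probe sets did, and 6 of the 16 had an unadjusted p under 0.05. In lh-/- cerebellum 0 of the 16 passed as well, against 0.155% of all probe sets, and 4 had an unadjusted p under 0.05. The smallest adjusted p was 0.362 in tg and 0.169 in lh. Between groups, 7 of the 16 probe sets did not overlap in tg and 5 in lh, where 14% and 12.7% of all probe sets did not. In stg it was 6 of 16, where 15.6% did not.

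Scn2a was the member nearest to a call in lh. Its main probe set read 1848, 1878 and 1739 in lh-/- and 2205, 2582 and 2414 in lh+/+ cerebellum, without overlap, a change of -0.40 (interval -0.61 to -0.18, adjusted p = 0.169). Within the runs of records the change was -0.36 and -0.47, and with the run as a block the adjusted p was 0.0389. In tg-/- cerebellum the same probe set read 2115, 1860 and 1779.9 against 2552, 1979.8 and 2103 in tg+/+, an overlapping pair of groups with a change of -0.20 (interval -0.42 to 0.02, adjusted p = 0.737). Probe set 1427281_at gave -0.33 in tg (adjusted p = 0.424) and -0.45 in lh (adjusted p = 0.221). The test of whether the Scn2a effect differed among the lines did not pass (F test, adjusted p = 0.383). On the main probe set stg minus tg was -0.50 (interval -0.80 to -0.19, adjusted p = 0.230) and stg minus lh -0.30 (interval -0.61 to 0.00, adjusted p = 0.602).

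**Figure D2:**
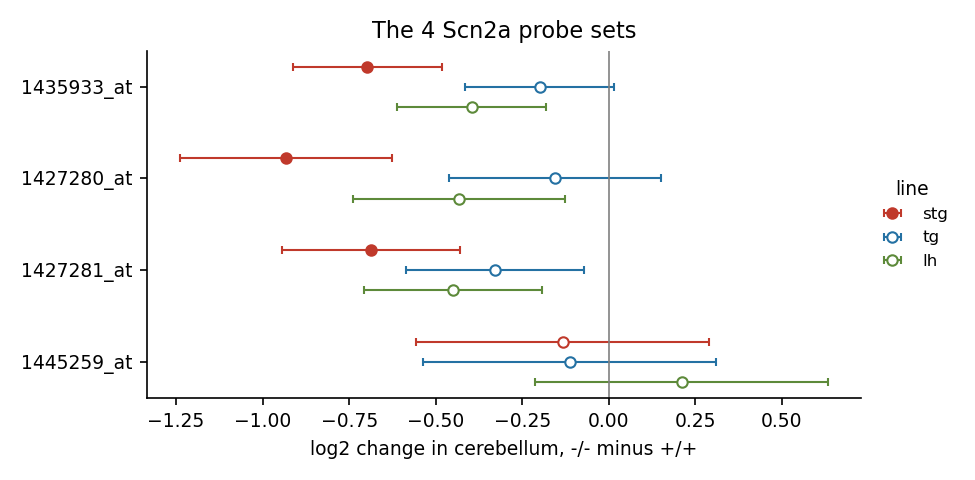
Log2 change (-/- minus +/+) of the 4 Scn2a probe sets in cerebellum, with 95% intervals from 18 arrays, for stg, tg and lh. Filled points passed at an adjusted p of 0.05. In stg 3 probe sets lie between -0.93 and -0.69, and the dim probe set 1445259_at lies between -0.13 and 0.21 in the 3 lines.

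Scn3b did not pass in the other lines. It read 34.8, 44.2 and 34.4 in tg-/- against 40.1, 45.6 and 41.0 in tg+/+ cerebellum (change -0.15, interval -0.64 to 0.33). In lh-/- cerebellum it read 51.8, 40.8 and 63.6 against 31.8, 46.1 and 43.9 in lh+/+ (change 0.33, interval -0.15 to 0.82). Both pairs of groups overlapped, and neither passed (adjusted p = 0.993 and 0.817). Of the 16 probe sets 1, that of Scn3b, passed the test of a difference among lines (F = 19.8, adjusted p = 0.0149), where 0.315% of all probe sets passed. In forebrain 0 of 18 passed it in limma, with 0 at an unadjusted p under 0.05, against 0.0259% of all. Without stg-/- cerebellum replicate 1 none of the 16 passed it, and without stg+/+ cerebellum replicate 2 the count was 2. Scn3b changed more in stg than in tg, by 1.97 (interval 1.29 to 2.65, adjusted p = 0.00741; 0.329% of all probe sets passed). The difference of stg from lh was 1.48 (interval 0.80 to 2.16) and did not pass (adjusted p = 0.0980; 0.118% of all probe sets passed).

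Scn4b gave nearly the same value in tg as in stg. It read 488, 368 and 378 in tg-/- and 356, 288 and 314 in tg+/+ cerebellum, a change of 0.36 without overlap that did not pass (adjusted p = 0.362). In lh the groups overlapped, at 309, 328 and 323 against 393, 345 and 305, with a change of -0.11. Scn2b gave -0.22, -0.23 and -0.23 in stg, tg and lh on its main probe set. In each line its -/- arrays lay below all +/+ arrays: 1711, 1657 and 1704 against 2138, 2063 and 1719 in stg, 1718, 1553 and 1732 against 2039, 1973 and 1851 in tg, and 1884, 1887 and 1769.9 against 2165, 2126 and 2208 in lh. No single line passed (adjusted p from 0.314 to 0.439).

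More of the members' log2 changes lay below 0 than above it in each line, most of them uncalled. Of the 16 probe sets 13 (81.2%) were below 0 in stg, 14 (87.5%) in tg and 14 (87.5%) in lh cerebellum, beside 47.7%, 51.6% and 46.1% of all probe sets. Their median changes were -0.17, -0.15 and -0.11, beside 0.01, -0.01 and 0.02 over all probe sets. Probe sets of 1 gene share a transcript and are no replicates, so these shares are descriptions. Of the 6 main probe sets tested, 1 for each gene, 4 were below 0 in stg and 5 each in tg and lh.

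The mean effect over the 3 lines was added after the values had been seen. In cerebellum 5 of the 16 probe sets passed, where 1.97% of all did. They were the 3 Scn2a probe sets (-0.43, -0.51 and -0.49), the main Scn2b probe set (-0.23 ± 0.05 SE, adjusted p = 0.0186) and Scn3b (0.66, adjusted p = 0.0110), whose mean rests on stg. Scn2b no longer passed without the 6 arrays numbered like those with high Gh and Prl (-0.16, adjusted p = 0.219) or without the intensity trend (adjusted p = 0.0665). Scn1a (-0.22, adjusted p = 0.163), Scn8a (-0.14, adjusted p = 0.235) and Scn4b (0.20, adjusted p = 0.209) did not pass. With the run of records as a block Scn1a and Scn4b did (adjusted p = 0.0146 and 0.0461), and under the replicate block so did Scn1a (adjusted p = 0.00921). In forebrain 0 of 18 passed in limma, with 2 at an unadjusted p under 0.05, where 0.0148% of all probe sets passed.

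**Figure D3:**
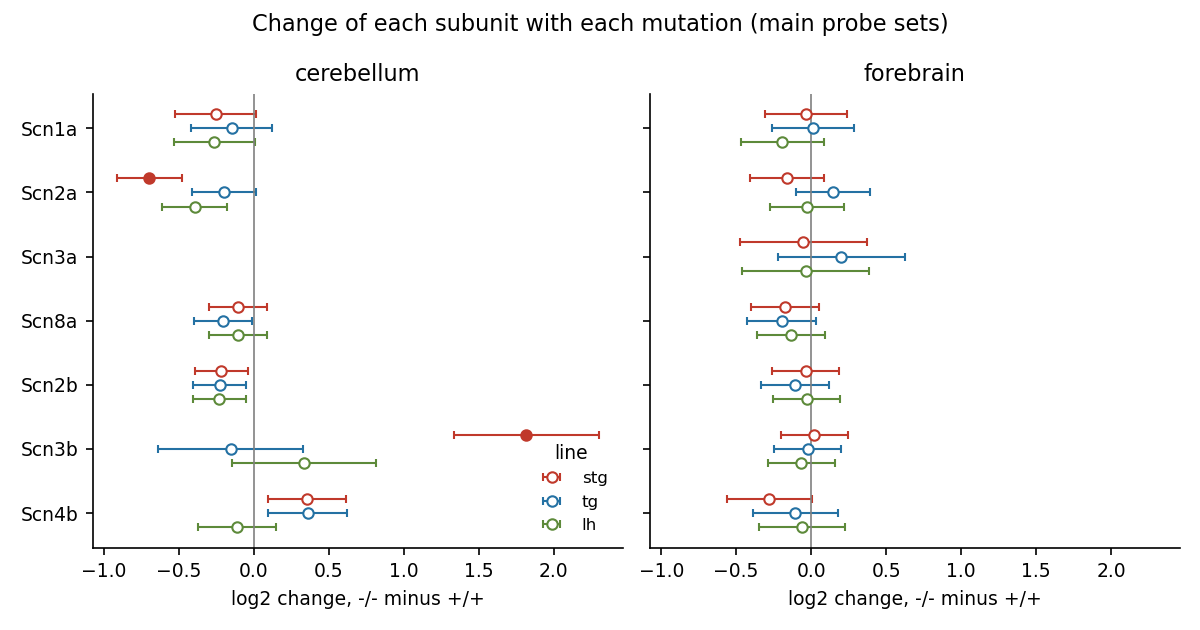
Log2 change (-/- minus +/+) of the main probe set of each gene in cerebellum (left) and forebrain (right) for the 3 lines, with 95% intervals. Filled points passed at an adjusted p of 0.05, which only Scn2a (-0.70) and Scn3b (1.81) in stg cerebellum did. Scn3a was too dim for a test in cerebellum.

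In the forebrain 0 of the 18 probe sets passed in limma in stg, tg or lh, where 0.0111%, 0.189% and 0.0148% of all probe sets passed, and 0, 0 and 1 had an unadjusted p under 0.05. Between -/- and +/+ forebrain 1 of 18 probe sets did not overlap in stg, 1 in tg and 2 in lh, where 7.45%, 9.7% and 10.7% of all probe sets did not. Scn3b, bright in this tissue, read 723, 763 and 842 in stg-/- and 801, 726 and 763 in stg+/+ forebrain, an overlapping pair with a change of 0.02 (interval -0.20 to 0.24). The main Scn2a probe set read 1698, 1837 and 1617 against 1813, 2022 and 1921, also overlapping, with a change of -0.16 (interval -0.41 to 0.09). Scn4b gave -0.28 (interval -0.56 to 0.00), Scn8a -0.17, Scn3a -0.05, Scn2b -0.04 and Scn1a -0.03. Log2 ratios of the 3′ to the 5′ actin control did not overlap, at 0.68 to 0.79 in stg-/- and 0.84 to 1.14 in stg+/+ forebrain. Those of Gapdh overlapped, and the part of RNA quality in the forebrain values was not tested.

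The effect of stg differed between the tissues for 2 of the 18 probe sets, where 0.248% of all passed. For Scn3b the cerebellum effect exceeded the forebrain effect by 1.79 (interval 1.32 to 2.27, adjusted p = 4.05e-05). For Scn2a probe set 1427280_at the difference between the effects was -0.947 (log2, adjusted p = 0.0263). That second call was lost when any of 7 of the 12 arrays was left out, namely stg-/- forebrain replicates 2 and 3, stg+/+ forebrain replicates 1 and 2, stg-/- cerebellum replicate 1 and stg+/+ cerebellum replicates 1 and 3, with adjusted p from 0.0674 to 0.110. The difference for the main Scn2a probe set was -0.54 (adjusted p = 0.233) and that for Scn4b 0.63 (interval 0.26 to 1.01, adjusted p = 0.222). With the run of records as a block both passed (adjusted p = 0.0412 and 0.0321). In tg and lh 0 of 18 differed between tissues in limma, with 2 at an unadjusted p under 0.05 in each, where 0.0259% and 0.0111% of all passed.

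Between the tissues of +/+ mice the sodium channel genes fell into 3 kinds. Scn3b and Scn4b were lower in cerebellum, where Scn3a was near background, Scn2a and Scn2b were higher, and Scn1a and the main Scn8a probe set did not pass. In all 11 of 18 probe sets passed (61.1%), 6 higher and 5 lower in cerebellum. Over all probe sets 58.2% passed, 32.4% higher and 25.8% lower, so the members' share lies near that of the array. Of the 5 lower ones, 2 (Scn3a and the second Scn3b probe set) were too dim in cerebellum to be kept there and entered this test through their forebrain signal, so they had to differ and support nothing.

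Scn3b was lower in cerebellum on its main probe set, which ran from 31.8 to 64.7 with a median of 43.9 on the 9 +/+ cerebellum arrays and from 675 to 913 with a median of 816 on the 9 +/+ forebrain arrays. Forebrain arrays lay above all cerebellum arrays, and the log2 difference was -4.11 ± 0.09 (SE, adjusted p = 3.49e-26), or 17.2-fold. It was -3.87 in stg, -4.14 in tg and -4.31 in lh mice. The second probe set read 0.963 to 17.3 in +/+ cerebellum and 88.9 to 147 in +/+ forebrain, but it entered through its forebrain signal and adds no support. In order of the group means, the 6 forebrain groups came first, at 763.5 to 851, with neighbours within 1 SD of each other. Next came stg-/- cerebellum at 182, more than 1 SD from the groups above and below it, and then the other 5 cerebellum groups at 37.8 to 52.1, again with neighbours within 1 SD.

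The main Scn3a probe set read 0.412 to 22.5 (median 10.7) in +/+ cerebellum and 184 to 360 (median 249) in +/+ forebrain, and it too entered through its forebrain signal. Since the cerebellum signals lie near the constant of 2.98 that was added before taking log2, the log2 difference depends on that constant, at -4.76 with a constant of 1 and -3.35 with one of 16. Scn4b read 241 to 393 (median 305) in cerebellum and 465 to 891 (median 629.8) in forebrain, without overlap, a difference of -0.96 ± 0.08 (SE, adjusted p = 1.47e-12). It was -1.16 in stg, -1.15 in tg and -0.56 in lh mice, and whether the lines differ was not tested.

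In the other direction, the 4 Scn2a probe sets were higher in cerebellum by 0.31 to 0.45. The main one read 1979.8 to 2582 (median 2409) in +/+ cerebellum and 1392 to 2177 (median 1921) in +/+ forebrain, so the tissues overlapped (adjusted p = 0.000101). Within stg-/- mice the direction on probe set 1427280_at was the reverse, at -0.54 (adjusted p = 0.00297, where 38.3% of all probe sets passed in that comparison). On the main probe set the stg-/- means were 1466 in cerebellum and 1717 in forebrain, and on 1427281_at 480.5 and 557. The dim 1445259_at kept its direction, at 72.9 and 62.6. The main Scn2b probe set read 1719 to 2208 (median 2063) in cerebellum and 1213 to 1660.0 (median 1410) in forebrain, without overlap, a difference of 0.51 (adjusted p = 1.58e-09). A second Scn2b probe set passed at 0.35 and the third, a dim one, gave 0.30 (adjusted p = 0.152).

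The tissues overlapped for the main probe sets of Scn1a and Scn8a. Scn1a read 781 to 1058 (median 867) in +/+ cerebellum and 713 to 931 (median 829) in +/+ forebrain, a difference of 0.13 (interval -0.02 to 0.29, adjusted p = 0.139). With the run of records as a block it passed (0.15, adjusted p = 0.01998), and likewise with array weights (0.17, adjusted p = 0.0367). The main Scn8a probe set read 1199.8 to 1515 (median 1389.9) and 1217 to 1580.1 (median 1421), a difference of -0.06 (interval -0.18 to 0.05). Another Scn8a probe set, 1457412_at, was lower in cerebellum (-0.23, adjusted p = 0.00266), and 2 gave values above 0 that did not pass.

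**Figure D4:**
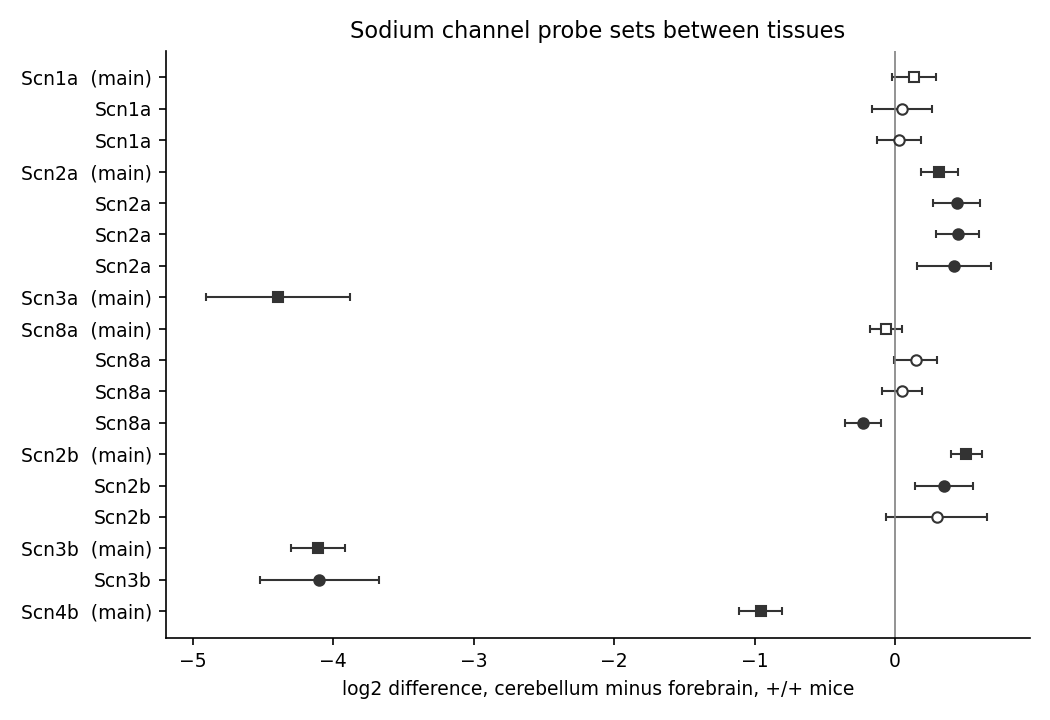
Log2 difference, cerebellum minus forebrain, in +/+ mice for the 18 probe sets tested, with 95% intervals. Squares are main probe sets, circles other probe sets, and filled symbols passed at an adjusted p of 0.05. The main Scn3b probe set lies at -4.11 and Scn4b at -0.96, the values of Scn3a and the second Scn3b probe set depend on the added constant, and all Scn2a and Scn2b probe sets above 0.

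No difference of these genes among the control mice of the 3 lines passed. In limma 0 of 16 probe sets passed the F test among the +/+ groups in cerebellum, with 1 at an unadjusted p under 0.05, where 0.881% of all passed. In forebrain it was 0 of 18, with 3 at an unadjusted p under 0.05, where 0.414% of all passed. The smallest adjusted p in forebrain, 0.178, was that of the Scn1a probe set 1441728_at, which read 108, 76.5 and 104 in tg+/+ mice, 56.4, 53.7 and 61.5 in stg+/+ mice and 64.8, 62.1 and 54.1 in lh+/+ mice. With array weights it passed.

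A list of 29 partners of the channels, such as anchoring proteins, fibroblast growth factor homologous factors and other sodium channel genes, gave 23 genes on the array. In stg-/- cerebellum, where 0.777% of all probe sets fell and 0.525% rose, 2 of the 19 tested fell and none rose: Fgf13 (-0.52, adjusted p = 0.00516) and Fgf12 (-0.44, adjusted p = 0.0155). Both encode intracellular factors that bind the tail of α subunits and shift their inactivation. Fgf13 averaged 258 ± 15.1 in stg-/- and 370.0 ± 13.3 in stg+/+ cerebellum (SD, n = 3 each), and Fgf12 513 ± 45.5 and 698 ± 20.6. Their tg and lh values were -0.34 and -0.20 for Fgf13 and -0.22 and -0.22 for Fgf12, which did not pass. The related Fgf14 (-0.46, adjusted p = 0.665) and Fgf11 (-0.03) did not pass, nor did Ank3 (0.10), the anchor of the initial segment. The list's median was -0.08, beside 0.01 over all probe sets.

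In tg-/- and lh-/- cerebellum 0 of the 19 partners passed in limma, with 6 and 4 at an unadjusted p under 0.05. Over all probe sets 0.574% and 0.155% passed there. In forebrain 0 of 21 passed in each of stg, tg and lh, with 1, 1 and 0 at that level. Over all probe sets only 0.0111%, 0.189% and 0.0148% passed in forebrain. Between tissues 14 of the 19 passed, 8 higher in cerebellum and 6 lower, beside 58.2% of all probe sets (32.4% higher and 25.8% lower). Kcnq3 (-2.49), a potassium channel gene of the initial segment, and Fgf13 (-2.22) were lower in cerebellum, and Fgf14 (2.22) and Tnc (1.23) were higher.

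Of 14 regulators of neuronal transcripts 13 were tested. In stg-/- cerebellum, where 1.3% of all probe sets passed, Rbfox2 rose (0.86, adjusted p = 0.00626) and Rbfox1 fell (-0.46, adjusted p = 0.00751). Both encode splicing factors of neurons that bind the same short RNA motif. Rbfox2 averaged 580.1 ± 91.5 in stg-/- and 322 ± 78.9 in stg+/+ cerebellum (SD, n = 3 each). Rbfox1 averaged 1357 ± 49.4 and 1877 ± 203, and it also fell in lh-/- cerebellum (-0.83, adjusted p = 0.000186). Its change in tg was -0.34 (adjusted p = 0.106). Rest, the repressor of neuronal genes that is known to bind sodium channel genes, gave 0.30 in stg (adjusted p = 0.816). The list's median in stg was -0.03, beside 0.01 over all probe sets. In forebrain 0 of 13 passed in limma in each line, with 2, 0 and 1 at an unadjusted p under 0.05. Over all probe sets 0.0111%, 0.189% and 0.0148% passed there in stg, tg and lh. Between tissues 5 of the 13 regulators were higher in cerebellum and 3 lower, a share near the 58.2% of all probe sets that passed.

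By likeness of pattern over the 12 group means, Scn3b was nearest to Astn1 (r = 0.995), Tnfrsf21 (0.993) and Tenm2 (0.993). Scn3a was nearest to Meis2, Ndn and Resp18 (0.995 each), Scn4b to Rtn4 (0.974), Ank (0.972) and Dctn2 (0.969), and Scn2b to Arhgef7 (0.984), Jmy (0.982) and Klf7 (0.980). Lower values were reached by Scn2a with Cplx2 (0.924), by Scn1a with Insig2 (0.902) and by Scn8a with Dpp8 (0.888). Over the 18 cerebellum arrays Scn3b was nearest to Tcerg1l (0.930), Igsf3 (0.896) and Pitpnc1 (0.882), and Scn2a to Msra (0.929), Ncald (0.893) and Camk4 (0.892). These are Pearson correlations chosen as the highest among all probe sets that share the same arrays, so they describe likeness of pattern.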

How the data were processed

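Total RNA of forebrain and cerebellum had been hybridised to 1-colour Affymetrix arrays, per the labels. The authors deposited an intensity on a linear scale for every probe set of an array, from 0.0223 to 16805. The sources used here do not name the software that produced these values, and no detection calls were used. Log2 of the signal plus 2.98, the 10th percentile of all values, was computed, which shrinks log2 changes of dim probe sets. The 64 control probe sets were left out, and each fit kept the 27022 probe sets whose mean log2 value exceeded its 40th percentile. Symbols came from the array's probe table, where 34958 probe sets had 1 symbol.

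The comparisons used limma 3.58.1 (R 4.3.3). Group means were fitted, followed by an empirical Bayes step with intensity trend, two-sided tests and Benjamini-Hochberg adjustment over all probe sets at 0.05. A fit of the 18 arrays of a tissue gave the comparisons within it, and a fit of all 36 arrays those between tissues. The fits were also run on simulated arrays with independent noise and added changes larger than most of those of the members. That simulation held no runs of records or pairs, and no result here rests on it. The number of arrays, 3 a group, limits the precision. Runs of consecutive records (20 and 16 arrays) were used as a batch, in the absence of dates in the labels.

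The members and lists were chosen with earlier results of these data known. Every member is described. Of the lists at most the 4 largest called changes of a comparison are named, besides a few members quoted as uncalled, chosen after their values were seen, and the 3 genes most alike in pattern.

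Titles number the cerebellum arrays 1 to 3. Deviations from the group means of same-numbered stg arrays correlated at 0.156, 0.188 and 0.380, above the limit of 0.1. The numbers were therefore used in stg for the differences of numbered pairs given above, although the labels state no pairing. The main tests use no pairing in any line, and the alternative with a block for number applies it to all lines. The stg cerebellum arrays numbered 3 were also the only ones of that line in the second run. A run shared by both genotypes cannot be told apart here from a pairing of animals. One pair was under the limit in tg and one in lh, at 0.0404 and 0.0948. Alternatives were other filters, added constants of 1 and 16, quantile normalization, no trend, array weights, blocks for run and number, only the arrays compared, and arrays left out.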

Additional observations from a re-analysis of the deposited data

Results flagged for a closer look

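Scn3b is listed here for tests of a difference between effects. Its effect in stg was larger in cerebellum than in forebrain by 1.79 (log2, adjusted p = 4.05e-05), with all 3 -/- cerebellum arrays above all 3 +/+ arrays and an overlap in forebrain. Its effect in cerebellum differed among the 3 lines (F = 19.8, adjusted p = 0.0149), a call that was lost without stg-/- cerebellum replicate 1. The stg effect exceeded that in tg by 1.97 (log2, adjusted p = 0.00741), while its difference from lh, 1.48, did not pass (adjusted p = 0.0980). The Scn2a probe set 1427280_at differed in its effect between the 2 tissues of stg mice, by -0.947 (log2, adjusted p = 0.0263). That call was lost under 9 alternatives, with adjusted p up to 0.110, and the main Scn2a probe set did not pass the same test (-0.54, adjusted p = 0.233). For 1427280_at the stg forebrain change was 0.01 and the cerebellum change -0.93.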

How the results depend on the processing

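In stg-/- cerebellum the same 4 probe sets passed under every alternative run except in 2 cases with 3 each: without the 6 arrays numbered like those with high Gh and Prl, where Scn2a 1435933_at was lost, and with the 60th percentile filter, where the Scn3b probe set was not tested. The replicate block, which in stg overlaps with the run of records, left the count at 4 while all probe sets passing went from 352 to 1018. The same block gave 1 in tg cerebellum (Scn2a 1427281_at) and 2 in lh cerebellum (Scn2a 1427281_at and 1435933_at), lines in which not every numbered pair reached the correlation limit. The run of records as a block gave the same 2 in lh cerebellum, 5 for the difference between tissues in stg, and 8 for the mean over the lines in cerebellum. Both blocks also raised the number of all probe sets passing in stg cerebellum, so the gained calls are not read as particular to the members. For the effect among lines in cerebellum the 60th percentile filter gave 0, since it removed the Scn3b probe set, omission of those 6 arrays gave 2, and single arrays left out gave 0 to 2. For the difference between tissues in stg, no intensity trend gave 1, their omission gave 1, and single arrays left out gave 1 to 2. Array weights gave 1 for the +/+ forebrain groups (Scn1a 1441728_at). The cause of these moves was not tested unless named. All probe sets passing in stg cerebellum numbered 689 with the run as a block, 174 without those 6 arrays, 194 in a fit of the 6 arrays alone and 225 to 291 with single arrays left out. Of 1613 alternative values of single probe sets, 1592 kept their direction and side of the threshold or were never called, 12 lost a call, 9 gained one and 0 called values reversed, while 49 uncalled values changed sign. No paired analysis was possible for forebrain because its titles carry no shared numbers. Without detection calls, values near the added constant have no known lower limit.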
